A study of Homo sapiens with 16 samples.

Results

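The 36 genes described here encode the transport machinery of the primary cilium. They were chosen by symbol as rows of the deposited count table and comprise subunits of the intraflagellar transport (IFT) trains, their kinesin-2 and dynein-2 motors, the BBSome, its assembly factors and small GTPases. The choice was made with measured values in view, since ARL3 and DYNC2H1 had been seen higher with siYAP and lower with YAP5SA. The table lists 26229 genes, of which 14673 had a mean above 10 counts per library and were tested, and all 36 members were among them.

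The study asked which genes depend on YAP in keratinocytes. RNA was sequenced from A431, an epidermoid carcinoma line, and HaCaT, a spontaneously immortalised keratinocyte line, both human. In the knockdown arm each line received control siRNA (siCTRL) or siRNA against YAP1 (siYAP), transfected 2 times with 24 h between, and was harvested 48 h after the second transfection. In the overexpression arm each line received empty vector or YAP5SA, a constitutively active mutant of YAP1 that the labels also call YAP1 S5A. Both lines were grown in DMEM with 10% fetal calf serum. Each siYAP and YAP5SA group had 3 libraries, and each siCTRL and empty vector group had 1, so the spread of the controls was not measured and all 8 groups shared 1 estimate of it. Each line is a single established line, and p-values below measure the spread between its libraries.

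The 16 libraries held 18115624 to 46791673 assigned read pairs, with a median of 26622174, and the lowest count of a member in any library was 51. YAP1 itself followed the labels. It stood at 94.3 CPM (counts scaled to a common library size) in A431 siCTRL against 5.34, 6.999 and 5.04 in siYAP, and at 254 in HaCaT siCTRL against 23.2, 21.6 and 21.8 in siYAP. In the YAP5SA libraries it reached 1495, 3245 and 2940 in A431 and 7549, 22250 and 10070 in HaCaT, against 124 and 423 with empty vector. The 6 keratinocyte markers KRT5, KRT14, TP63, ITGB4, LAMA3 and DSG3 summed to 1724 to 5982 CPM in every library. Fibroblast markers summed to at most 2.95 CPM in A431, with COL1A2 and PDGFRA at or near 0 in both lines. In HaCaT they summed to 13.1 CPM in siCTRL and 14.5 to 19.9 in siYAP, mostly DCN (11.3 to 14.2). With empty vector or YAP5SA in HaCaT the sums were 0.605 to 1.77 CPM. Leukocyte markers summed to at most 3.65 CPM (PTPRC and CD3E at or near 0) and melanocyte markers to at most 3.78 (TYR at 0 throughout). Endothelial markers summed to 32.5 CPM in A431 siCTRL and 52.1 in HaCaT siCTRL, almost all of it CDH5, with KDR at 0 in both, and to 12.3 to 20.3 in the siYAP libraries. The libraries furthest from their replicate partners were HaCaT YAP5SA replicates 2 and 1 and A431 YAP5SA replicate 1, with a root mean square log2 distance of 0.519, 0.468 and 0.454 against 0.274 to 0.344 for the siYAP libraries.

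The primary cilium is a single, non-motile antenna built on the mother centriole of many resting cells, in which Hedgehog and other signals are received. Proteins are not made inside it, and tubulin and membrane proteins are carried along the axoneme on IFT trains. Kinesin-2 drives the trains outwards and dynein-2 brings them back, IFT-B subunits carry tubulin and other axonemal cargo, IFT-A serves the return journey and the entry of membrane proteins, and the BBSome removes membrane receptors. Epidermal keratinocytes can carry a primary cilium, and cells generally resorb it as they divide. The protein and the cilium were not measured here, only the messenger RNA.

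Many ciliary genes carry an X-box, a pair of half-sites near the transcription start that is bound by RFX transcription factors. RefSeq promoter windows of 300 bases (250 before and 50 after the start, build GRCh38.p14) were available for 33 of the 36 members, 39 windows in all. The half-site GTTGCC, read on either strand, was present in 17 of 39 member windows (43.6%) and in 12.2% of all 35116 windows. A pair of half-sites, GTTNCC followed by GGNAAC with 0 to 3 bases between, was found in 2 of 39 (5.13%, IFT122 and ARL6) and 0.74%, and such pairs overlap the single half-site count. GGAATG, the core of the site bound by TEAD factors through which YAP acts, was found on either strand in 4 of 39 windows (10.3%, BBS4, IFT20, KIF3A and KIF3B) and in 14% of all windows. These matches describe letters in a window and not binding. The ARL3 window held no half-site, but bases 71 to 85 of its GENCODE v29 transcript (5′ UTR, exon 1) held a full pair. In the first 100 transcribed bases such a pair was found in 2 of 36 members (5.56%, ARL3 and IFT122) and in 0.142% of 19668 protein-coding genes. IFT27, IFT46, IFT88 and BBS10 also held a half-site, and ARL6 and IFT74 held further ones, which are not printed. Those below are printed 5′ to 3′ along the gene, with the half-site, its reverse complement or for ARL3 the whole pair in capitals.
DYNC2H1 (chr11:103109363-103109392, plus strand): gtgccccgagagGGCAACgcccaccgcgcg
DYNC2H1 (chr11:103109429-103109458, plus strand): gcgactacccctGGCAACcgcgaagctctg
TULP3 (chr12:2890839-2890868, plus strand): gtgtggaacgcgGTTGCCaggaggcgggac
CLUAP1 (chr16:3500970-3500999, plus strand): aagggtccattgGTTGCCatagagatcgtc
IFT122 (chr3:129440200-129440229, plus strand): ccgcgcatgtacGTTGCCaggggtaacgca
IFT74 (chr9:26956372-26956401, plus strand): tatcccgcccccGTTGCCgggatacgccgc
IFT81 (chr12:110124345-110124374, plus strand): ggcctagcaaccGTTGCCaaggagctcgac
TTC8 (chr14:88824605-88824634, plus strand): cagccgtcgcggGTTGCCgggcagagtcgg
BBS1 (chr11:66510624-66510653, plus strand): agggcggggccgGTTGCCaggacgacgcct
BBS5 (chr2:169479468-169479497, plus strand): cagaggcggcccGTTGCCttggagccagag
DYNC2LI1 (chr2:43774019-43774048, plus strand): cgtcgctcccatGGCAACccagaaggcctc
ARL6 (chr3:97764722-97764751, plus strand): gaagaagctcctGTTGCCaagggaacggtg
ARL3 (chr10:102714316-102714344, minus strand): cgcagcaGTTGCCCCTGGTAACgggggag

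All complexes were transcribed in both lines. Mean levels over the 16 libraries ran from 4.38 CPM (IFT27) to 190.1 CPM (KIF3B) with a median of 26.1 CPM, against 22.5 CPM for all tested genes. Per kilobase of transcript the members spanned 3.09 to 35.1 CPM per kb with a median of 7.56. Subunits of 1 complex were not at 1 level. IFT-A ran from 3.41 (IFT140) to 26.8 CPM per kb (IFT43), the IFT-B core from 4 (IFT27) to 35.1 (IFT52), peripheral IFT-B from 3.56 (IFT172) to 31.0 (CLUAP1), dynein-2 from 5.32 (WDR60) to 31.1 (DYNC2LI1) and the BBSome from 4.28 (BBS9) to 30.3 (BBS2). The GTPases ARL6 and ARL3 stood at 3.09 and 7.86 CPM per kb. The length used is that of 1 transcript per gene, so these levels depend on the isoform. Over the 4 groups of 3 libraries the coefficient of variation of a member had a median of 8.93%.

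With siYAP, 3 members were called higher in A431 and 2 in HaCaT, beside 1.81% and 2.37% of all tested genes. The rest of the machinery did not move one way. ARL3 is the GTPase that frees lipid-modified cargo from its carriers inside the cilium. In A431 it stood at 28.9 CPM in siCTRL and at 45, 41.8 and 40.7 in siYAP, a log2 fold change of 0.56 ± 0.15 (SE, as in all values below). In HaCaT it went from 15.2 to 32.4, 31.5 and 29.6 CPM, a log2 fold change of 1.04 ± 0.15. In both lines every siYAP library lay above the single siCTRL library. With empty vector ARL3 stood at 40.96 CPM in A431, within the siYAP range there, and at 22.2 in HaCaT, below it. In bulk RNA, a change in the share of expressing cells and a change in RNA per cell cannot be told apart.

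DYNC2H1, the heavy chain of the dynein-2 motor, stood at 34.1 CPM in A431 siCTRL and at 71.5, 62.3 and 67.1 in siYAP, a log2 fold change of 0.97 ± 0.14. HaCaT held far more of it, 188 CPM in siCTRL and 256, 233 and 262 in siYAP, and the log2 fold change of 0.41 ± 0.13 did not pass in that line alone. TULP3, which bridges IFT-A to membrane lipids and brings receptors into the cilium, was the third. It stood at 24.5 CPM in A431 siCTRL against 39.1, 37.03 and 44.7 in siYAP, and at 19.99 in HaCaT siCTRL against 37.02, 40.04 and 37.4 in siYAP. Its log2 fold changes were 0.71 ± 0.16 and 0.93 ± 0.16, and no siYAP library overlapped its control.

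By the limits given below, 2 members fell in A431 and 1 in HaCaT, beside 3.78% and 3.3% of all tested genes. CLUAP1, a peripheral IFT-B subunit, stood at 61.3 CPM in HaCaT siCTRL against 44.2, 42.1 and 37.9 in siYAP (log2 fold change -0.57 ± 0.14). In A431 it was at 62.8 against 51.8, 48.5 and 51.4 CPM (-0.31 ± 0.14, not passed). IFT81, which with IFT74 forms the tubulin-binding module, fell in A431 from 32.7 CPM to 16.9, 18.7 and 16.2 (-0.92 ± 0.18), while in HaCaT it stood at 23 and 24.5, 23.1 and 26.4 (0.10 ± 0.20). BBS1, the BBSome subunit that docks on ARL6, fell in A431 from 16.4 CPM to 8.41, 9.58 and 9.99 (-0.81 ± 0.22). In HaCaT BBS1 stood at 31.1 against 28.7, 27.6 and 32.3 CPM, overlapping its control. With empty vector CLUAP1 stood at 53.8 CPM in HaCaT and 52.7 in A431, and in A431 IFT81 stood at 23.1 and BBS1 at 11.4. Each of these values lay below siCTRL and above every siYAP library of its line. With siCTRL and empty vector as 2 controls, 1 member was called higher and 0 lower in A431, beside 1.35% of all genes. In HaCaT 5 were called higher and 3 lower, beside 20%.

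**Figure D1:**
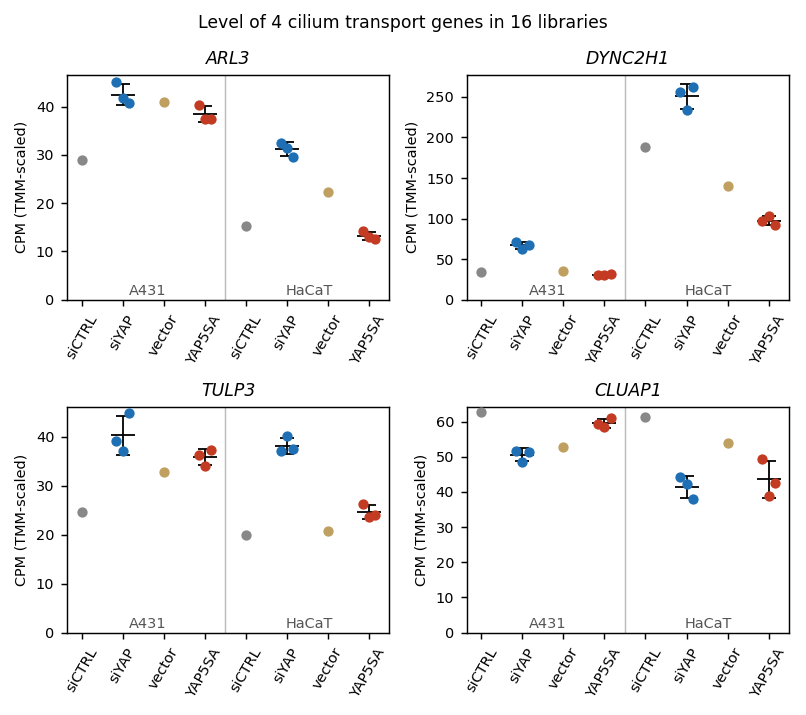
Level of ARL3, DYNC2H1, TULP3 and CLUAP1 in each of the 16 libraries, in TMM-scaled CPM (y axis, from 0), by line and condition (x axis). Points are libraries and bars are the mean ± SD of 3 libraries, with single points for the 1 control of each arm. ARL3 siYAP libraries lay at 40.7 to 45.0 CPM in A431 and 29.6 to 32.4 in HaCaT, above siCTRL at 28.9 and 15.2.

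The counts over the list are a description, since the members were chosen with these comparisons in view. A gene was called at FDR below 0.05 with logCPM above 1. In A431 3 of 36 were called higher and 2 lower, where 1.81% and 3.78% of all tested genes were called. In HaCaT 2 were called higher and 1 lower, where 2.37% and 3.3% of all genes were. Over both lines DYNC2H1, ARL3 and TULP3 were called higher and CLUAP1 lower (all genes 5.3% and 7.68%), with log2 fold changes of 0.69 ± 0.093, 0.80 ± 0.11, 0.82 ± 0.11 and -0.44 ± 0.10. The median member stood at a log2 fold change of -0.074 in A431 and 0.14 in HaCaT, against 0.029 and 0.028 for all tested genes. By complex, all 6 IFT-A subunits had values above 0 in HaCaT (0.0021 to 0.26), but in A431 3 lay above and 3 below. Of 7 IFT-B core subunits, 6 had values below 0 in A431 and 3 in HaCaT. None of these passed the limits but IFT81 in A431. Of all tested genes 46.7% lay below 0 in A431 and 46.8% in HaCaT. Leaving out any 1 A431 siYAP library left 2 or 3 members called in that line, with ARL3 at 0.49 to 0.59 and BBS1 at -0.87 to -0.76 and neither called, and TULP3 also lost its call without replicate 3 (0.63). CLUAP1 in HaCaT lost its call without any 1 of the 3 HaCaT siYAP libraries (-0.62 to -0.51).

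**Figure D2:**
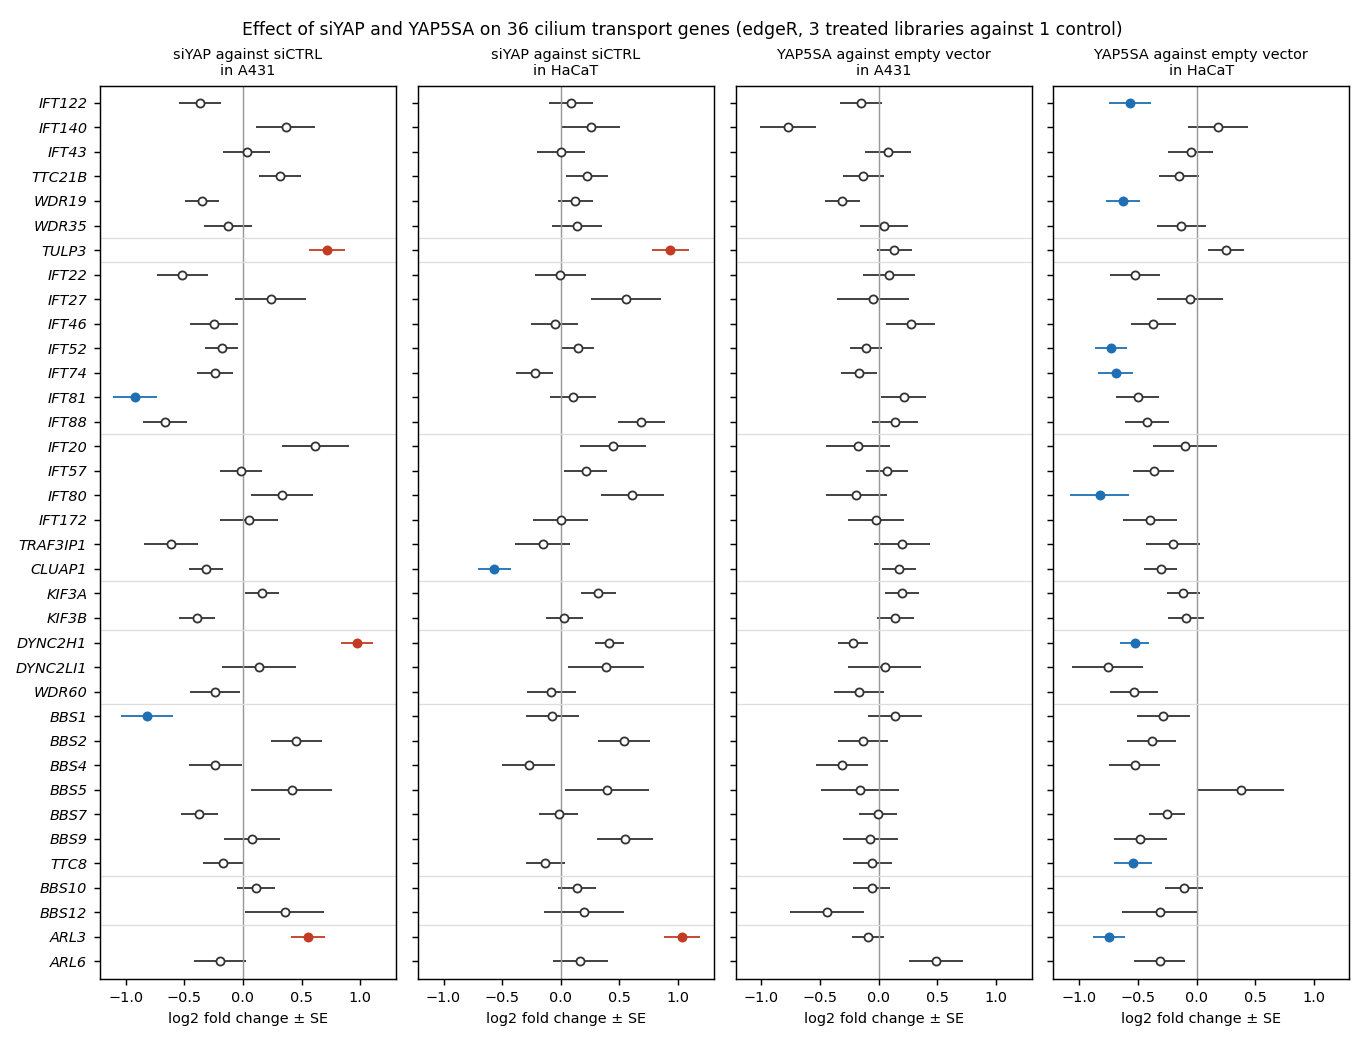
Log2 fold change with SE (x axis) of the 36 members (y axis, grouped by complex) in the 4 comparisons, each line with siYAP relative to siCTRL and with YAP5SA relative to the empty vector control. Filled points passed the limits (red higher, blue lower) and open points did not. With YAP5SA in HaCaT 33 of the 36 points lay below 0.

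With YAP5SA, 8 members (22.2%) were called lower in HaCaT, beside 6.64% of all tested genes, and none passed in A431. No gene at all passed by edgeR in A431, and YAP1 itself did not, at a log2 fold change of 4.36 ± 0.65. With HaCaT fitted alone 2 of the 8, ARL3 and IFT52, were called (5.56% of members, beside 4.51% of all genes). In HaCaT the 8 were 2 IFT-A subunits, 3 of the IFT-B subunits, the dynein-2 heavy chain, a BBSome subunit and ARL3. ARL3 stood at 22.2 CPM with empty vector and at 14.2, 13.03 and 12.5 with YAP5SA (log2 fold change -0.75 ± 0.14). DYNC2H1 stood at 140.4 CPM against 97.2, 103 and 91.8 (-0.53 ± 0.12). For both genes all 3 YAP5SA libraries lay below the control.

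The IFT-B subunits that fell were IFT52, IFT74 and IFT80. IFT52, a scaffold of the core, stood at 72.1 CPM against 46.1, 40.7 and 43.6 (-0.73 ± 0.13). IFT74, the partner of IFT81, stood at 40.6 against 25.8, 24.1 and 25.7 (-0.69 ± 0.15). The peripheral subunit IFT80 stood at 83.2 CPM against 66.1, 34.5 and 40.3 (-0.82 ± 0.25), the widest spread of the 3. Of IFT-A, IFT122 stood at 22.3 CPM against 13.4, 17.2 and 14.5 (-0.57 ± 0.18), and WDR19 at 41.3 against 25.4, 28.6 and 26.2 (-0.63 ± 0.14). Both are subunits of the stable IFT-A core. The BBSome subunit TTC8 stood at 69.8 CPM against 53.6, 41.9 and 48.3 (-0.54 ± 0.16).

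In A431 these genes had values nearer 0. ARL3 stood at 40.96 CPM with empty vector against 40.4, 37.5 and 37.4 with YAP5SA (-0.092 ± 0.14), and DYNC2H1 at 35.9 against 30.1, 30.3 and 32.2 (-0.22 ± 0.13). IFT52 stood at 69.5 against 60.9, 67.2 and 65.4 CPM (-0.11 ± 0.14). The lowest value of any member in A431 was that of IFT140, an IFT-A core subunit, at 21.3 CPM with empty vector against 12.3, 11.97 and 13.1 (-0.77 ± 0.24), which did not pass. TULP3, higher with siYAP, was not lower with YAP5SA in either line (0.13 ± 0.15 in A431 and 0.25 ± 0.15 in HaCaT).

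In HaCaT 0 of 36 members were called higher with YAP5SA and 8 lower, beside 6.99% and 6.64% of all tested genes, and 33 of 36 values lay below 0 against 48.8% of all genes. The median member stood at -0.37 and all genes at 0.013, and without ARL3 and DYNC2H1 31 of 34 lay below 0 with a median of -0.34. In 24 members all 3 YAP5SA libraries lay below empty vector, in 2 all lay above and in 10 they overlapped, and 33.9% of all tested genes had all 3 below. In A431 none was called (0% of all genes, 0 of them by edgeR and 3 by DESeq2), with 1 member at an unadjusted p under 0.05, none called by DESeq2, and 21 of 36 values below 0. Over both lines 0 were called higher and 4 lower (1.38% and 0.661% of all genes): IFT52 (-0.42 ± 0.10), WDR19 (-0.47 ± 0.10), DYNC2H1 (-0.37 ± 0.087) and ARL3 (-0.42 ± 0.10). The single empty vector library enters every one of these HaCaT values, and the members were chosen with them in view, so the counts are given as a description. The 4 calls over both lines became 0 without A431 YAP5SA replicate 2 or 3 or HaCaT YAP5SA replicate 3, and 8 without HaCaT YAP5SA replicate 1. The 8 calls in HaCaT became 12, 6 and 5 without replicates 1, 2 and 3. IFT122 (-0.68 to -0.49) lost its call without replicate 1 or 3, and IFT80 (-1.15 to -0.65) and TTC8 (-0.63 to -0.46) without replicate 2 or 3. In the same HaCaT libraries the simple epithelial keratins KRT8 and KRT18 summed to 788 CPM with empty vector and 1733 to 2427 with YAP5SA, and 5 proliferation markers (MKI67, TOP2A, CCNB1, PCNA, MCM2) to 2887 and 2137 to 2423 CPM. Their part in these values was not tested.

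An interaction term asked whether siYAP or YAP5SA acted differently in A431 and HaCaT. It is built from the comparisons that chose the members and is therefore a description, and all differences of an arm share the same 2 single control libraries. No member passed for siYAP by edgeR (0 of 36, 6 at an unadjusted p under 0.05), beside 0.17% of all genes, and DESeq2 called 2 members and 2% of all genes. IFT88, a core IFT-B subunit without which cilia do not form, had the largest difference of the 36. It stood at 20.8 CPM in A431 siCTRL against 13.98, 13.9 and 11.3 in siYAP, and at 16.4 in HaCaT siCTRL against 25.7, 27.8 and 25.95 in siYAP, a difference of log2 effects of -1.35 ± 0.28, which did not pass. For YAP5SA none passed by edgeR either (0 of 36, 8 at an unadjusted p under 0.05), beside 0.0886% of all genes, and DESeq2 called 1 member and 6.43% of all genes. The ARL3 effect differed by 0.66 ± 0.20 and that of IFT52 by 0.62 ± 0.20. The fall of 8 members in HaCaT was therefore not shown to differ from A431. Of the 36 differences, A431 minus HaCaT, 5 lay below 0, as did 48.7% of all genes. Without HaCaT YAP5SA replicate 1, 3 members and 4.18% of all genes were called.

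The 2 lines differed in most members, whichever arm was compared. This comparison sets 3 libraries against 3, and the choice of members did not use it. It does rest on the siYAP and YAP5SA libraries in which ARL3 and DYNC2H1 had been seen to change. For these 2 genes it is therefore a description. Under siYAP 11 of 36 were higher and 15 lower in A431 than in HaCaT by edgeR, beside 31.7% and 26.9% of all tested genes. Under YAP5SA 15 were higher and 7 lower, beside 26.7% and 23.5%. In 14 members (38.9%, against 32% of all genes) the difference passed in the same direction in both arms, 8 higher and 6 lower in A431 (17.3% and 14.7% of all genes). In 2 (IFT52 and IFT81, 5.56% against 6.16%) it passed in opposite directions, in 10 under siYAP alone (27.8% against 20.4%), in 6 under YAP5SA alone (16.7% against 12%) and in 4 in neither (TRAF3IP1, IFT20, BBS2 and WDR60, 11.1% against 29.4%). The control libraries differed between the lines with the same sign as both treated arms in 18 of the 36 (50%), as in 51.2% of all genes.

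Among members lower in A431, DYNC2H1 showed the widest gap. It stood at 71.5, 62.3 and 67.1 CPM in the A431 siYAP libraries against 256, 233 and 262 in HaCaT, and at 30.1, 30.3 and 32.2 against 97.2, 103 and 91.8 under YAP5SA. The log2 differences were -1.90 ± 0.091 and -1.66 ± 0.091, a mean 3.43-fold. The light intermediate chain of the same motor went the other way. DYNC2LI1 stood at 60.4, 59.5 and 46.98 CPM in A431 and 35.7, 36.4 and 31.5 in HaCaT under siYAP, and at 66.9, 48.02 and 54.2 and 30.5, 16.7 and 15.5 under YAP5SA. Its log2 differences were 0.69 ± 0.22 (FDR 0.0137) and 1.43 ± 0.22 (FDR 0.000115), and the first lost its call without A431 siYAP replicate 1 (0.58) or HaCaT siYAP replicate 3 (0.59). WDR60, the third dynein-2 subunit among the members, passed in neither arm (-0.19 ± 0.15 and 0.35 ± 0.15).

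The IFT-B core was split. IFT74 was higher in A431, at 70.6, 65.5 and 64.1 CPM against 24.2, 26.2 and 21.7 under siYAP and 69.7, 56.3 and 57.6 against 25.8, 24.1 and 25.7 under YAP5SA (1.47 ± 0.11, FDR 9.3e-08, and 1.28 ± 0.11, FDR 6.27e-07). IFT46 was lower in A431, at 14.9, 14.7 and 12.8 against 34.7, 34.8 and 31.6 CPM and 18.4, 23.4 and 22.9 against 26.2, 36.6 and 32.7 (-1.25 ± 0.14, FDR 4.91e-06, and -0.56 ± 0.14, FDR 0.00426). IFT27, a Rab-like GTPase of the train that helps the BBSome to leave the cilium, had the lowest CPM of the members, though not the lowest CPM per kb. It stood at 2.48, 3.79 and 3.30 CPM in A431 against 7.36, 6.80 and 7.04 in HaCaT under siYAP and 2.50, 2.08 and 2.34 against 6.28, 5.23 and 5.15 under YAP5SA (-1.16 ± 0.21, FDR 0.000227, and -1.27 ± 0.21, FDR 0.000173). For all 3 genes the lines did not overlap within an arm. Of the peripheral subunits, IFT57 was higher in A431, at 142, 133 and 131 against 57.9, 58.9 and 49.1 CPM and 140.4, 105 and 110.2 against 92.5, 74.7 and 76.4 (1.29 ± 0.13, FDR 1.23e-06, and 0.54 ± 0.13, FDR 0.00238).

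IFT-A was split as well. WDR35, a peripheral subunit of the complex, was higher in A431, at 52.9, 59.1 and 52.7 CPM against 24.6, 19.7 and 24.99 under siYAP and 30.99, 33.4 and 37.3 against 11.7, 17.1 and 13.5 under YAP5SA (1.25 ± 0.15, FDR 6.4e-06, and 1.27 ± 0.15, FDR 1.02e-05). WDR19 was lower in A431, at 18.1, 16.8 and 18.3 against 44.03, 39.1 and 40.03 CPM and 17.4, 20.03 and 19.4 against 25.4, 28.6 and 26.2 (-1.21 ± 0.11, FDR 4.17e-07, and -0.50 ± 0.11, FDR 0.00136). In the BBSome, BBS5, which binds membrane lipids, had the largest mean difference of the members called in both arms. It stood at 30.4, 38.5 and 48.9 CPM in A431 against 16.1, 10.8 and 21.7 in HaCaT under siYAP and 27.2, 37.9 and 35.9 against 7.25, 5.60 and 7.68 under YAP5SA, log2 differences of 1.27 ± 0.24 (FDR 0.000421) and 2.30 ± 0.25 (FDR 5.44e-06), a mean 3.44-fold. ARL3 was higher in A431, by 0.45 ± 0.10 under siYAP and 1.54 ± 0.10 under YAP5SA, from the CPM values given above. The kinesin-2 motor subunits passed under siYAP alone, KIF3A at 0.37 ± 0.10 and KIF3B at -0.74 ± 0.11 (FDR 0.00555 and 5.56e-05), against 0.0038 ± 0.10 and -0.15 ± 0.11 under YAP5SA.

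**Figure D3:**
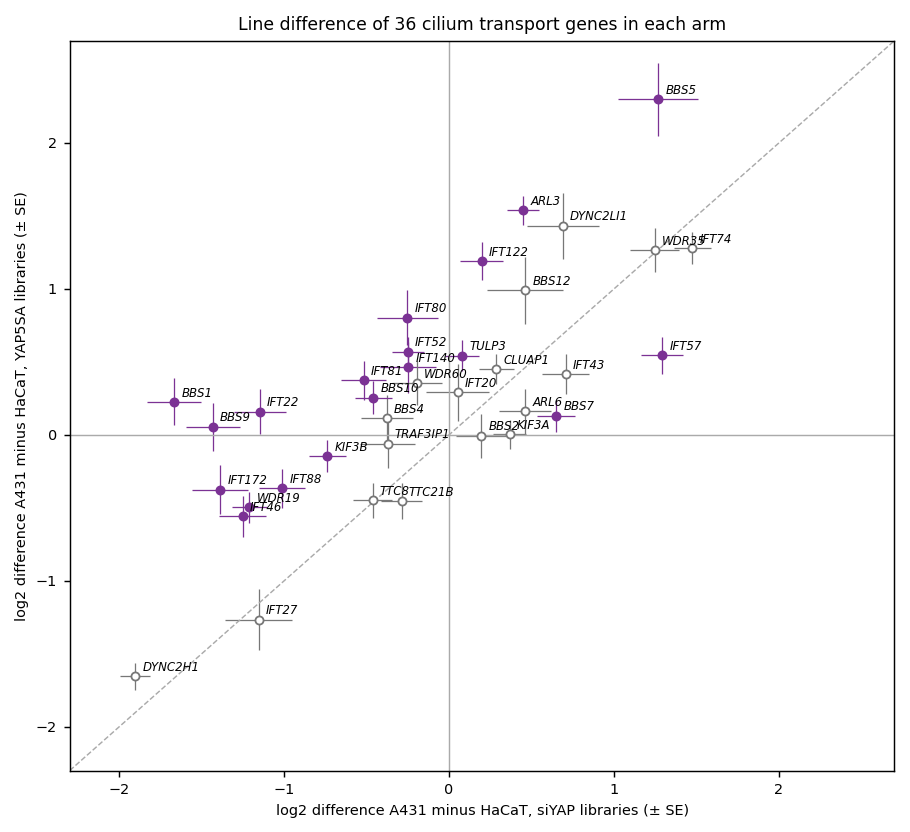
Log2 difference A431 minus HaCaT of the 36 members under siYAP (x axis) and under YAP5SA (y axis), each with its SE from 3 libraries a line. Filled points are the 19 members whose difference changed between the arms, and the dashed line marks an equal difference in both. Of the 19, 17 lay above the dashed line and 2, IFT57 and BBS7, below.

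The difference between the lines was itself not constant. The change of the line difference from the YAP5SA arm to the siYAP arm was tested after its values had been seen, as A431 minus HaCaT under siYAP less the same under YAP5SA. It passed by edgeR in 19 of 36 members (52.8%), where 40.2% of all tested genes passed, in 17 of them downwards and in 2 upwards (47.2% and 5.56%, against 18.9% and 21.3% of all genes). The median member changed by -0.54 and the median gene by -0.032. BBS1 changed most. It stood at 8.41, 9.58 and 9.99 CPM in A431 and 28.7, 27.6 and 32.3 in HaCaT under siYAP, and at 9.90, 13.8 and 14.01 and 9.20, 10.8 and 12.3 under YAP5SA, where the lines overlapped, a change of -1.89 ± 0.23 (FDR 3.39e-05).

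BBS9, a scaffold of the BBSome, showed the same shape, with 13.8, 14.2 and 10.7 CPM in A431 and 33.8, 36.6 and 34.5 in HaCaT under siYAP and 14.1, 9.56 and 11.1 and 12.2, 11.8 and 9.54 under YAP5SA, a change of -1.49 ± 0.23 (FDR 0.000242). IFT22, a Rab-like subunit of the IFT-B core, stood at 17.8, 16.8 and 13.8 and 34.5, 40.2 and 32.8 under siYAP and at 19.8, 28.9 and 28.6 and 22.6, 24.5 and 22.3 under YAP5SA (-1.31 ± 0.22, FDR 0.000396). ARL3, chosen with its siYAP and YAP5SA values in view, changed by -1.09 ± 0.14, its YAP5SA libraries in HaCaT being the lowest of all groups. IFT80 did not pass between the lines under siYAP, at 139.7, 114 and 113 CPM in A431 against 145, 145 and 147 in HaCaT, and was higher in A431 under YAP5SA, at 85.1, 76.5 and 84.2 against 66.1, 34.5 and 40.3 (-1.06 ± 0.26, FDR 0.00564). IFT172, which acts where trains turn round at the tip, stood at 11.8, 10.6 and 11.9 CPM in A431 and 30.7, 27.2 and 31.9 in HaCaT under siYAP and 10.4, 16.4 and 17.7 and 19.5, 18.6 and 19.8 under YAP5SA (-1.01 ± 0.24, FDR 0.004). IFT122, in contrast, passed between the lines only under YAP5SA, at 31.9, 37.2 and 33.7 CPM in A431 against 13.4, 17.2 and 14.5 in HaCaT, and stood at 26.4, 28.5 and 27.4 against 20.6, 26.5 and 24.8 under siYAP (-0.99 ± 0.18, FDR 0.00079). IFT57 moved the other way. Its HaCaT level was 57.9, 58.9 and 49.1 CPM under siYAP and 92.5, 74.7 and 76.4 under YAP5SA, with A431 at 105 to 142 throughout, a change of 0.75 ± 0.18 (FDR 0.00443). BBS5 changed by -1.03 ± 0.34 (FDR 0.0269), which was lost without any 1 of 6 libraries (A431 siYAP replicate 1 or 2, A431 YAP5SA replicate 2 or 3, HaCaT siYAP replicate 3, HaCaT YAP5SA replicate 2), at -1.25 to -0.74 over all libraries left out in turn.

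**Figure D4:**
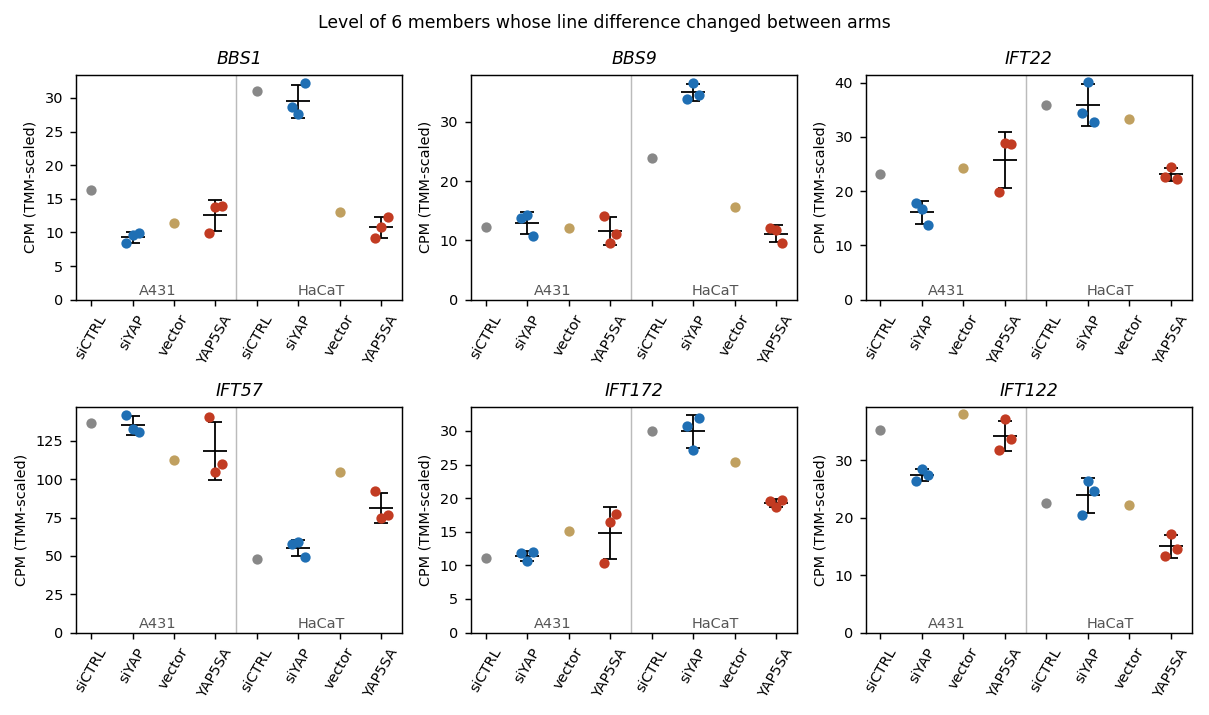
Level of BBS1, BBS9, IFT22, IFT57, IFT172 and IFT122 in each of the 16 libraries, in TMM-scaled CPM (y axis, from 0), by line and condition (x axis). Points are libraries and bars are the mean ± SD of 3 libraries. BBS1 in HaCaT lay at 27.6 to 32.3 CPM with siCTRL or siYAP and at 9.20 to 13.1 with empty vector or YAP5SA.

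The controls of the arms differed as well. In HaCaT 7 of 36 members (19.4%) differed by more than 2-fold between empty vector and siCTRL, 1 library each, as did 37.3% of all tested genes, and in A431 1 of 36 (BBS12, 2.78%) and 9.53%. From siCTRL to empty vector in HaCaT, BBS1 went from 31.1 to 13.1 CPM, IFT140 from 23.1 to 7.96 and IFT57 from 47.7 to 105. Other members with a changed line difference moved little, such as IFT22 from 35.9 to 33.3 CPM and IFT122 from 22.6 to 22.3. The 5 proliferation markers summed to 408 CPM in HaCaT siCTRL and 267 to 401 in siYAP, but to 2887 with empty vector, and in A431 to 1173, 880 to 1001 and 1714. siRNA or vector transfection, culture and the state of YAP cannot be told apart in the change of the line difference, and the part of proliferation in it was not tested.

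Of 22 other transport genes, all tested, some of those called with siYAP over both lines were further subunits of the same machines. KIFAP3, the accessory subunit of kinesin-2, stood at 27.6 CPM in A431 siCTRL against 61.1, 50.95 and 54.8 in siYAP, and at 25.7 in HaCaT against 82.3, 99.2 and 83.7. With empty vector KIFAP3 stood at 48.5 CPM in A431 and 83.5 in HaCaT, nearer the siYAP libraries than siCTRL. Its log2 fold change over both lines was 1.40 ± 0.12, and with YAP5SA -0.14 ± 0.11, which did not pass. TTC26, an IFT-B subunit, fell over both lines by 0.95 ± 0.10 on the log2 scale, from 58.6 to 26.5, 27.96 and 24.1 CPM in A431 and from 26.6 to 16.6, 15.7 and 15.7 in HaCaT. BBIP1, a BBSome subunit, rose (0.78 ± 0.13), as did RP2, which switches ARL3 off (0.76 ± 0.12), while LZTFL1, a regulator of the BBSome, fell (-0.64 ± 0.13). RP2 passed in HaCaT alone (1.06 ± 0.17, and 0.46 ± 0.17 in A431) and LZTFL1 in A431 alone (-0.75 ± 0.18, and -0.53 ± 0.18 in HaCaT). With empty vector RP2 stood at 37.2 CPM in A431 and 108.4 in HaCaT, above every siYAP library of the line, with siCTRL at 22.7 and 28.7. BBIP1 in HaCaT stood at 20.1 CPM with empty vector and 9.12 in siCTRL, against 16.2, 18.95 and 15.6 in siYAP. TTC30A, an IFT-B subunit called lower over both lines (-0.77 ± 0.14), stood at 37.2 CPM in A431 siCTRL against 13.4, 14.3 and 11.6 in siYAP but at 24.7 against 26.3, 21.6 and 24.2 in HaCaT, where the groups overlapped. It has a near-identical copy, TTC30B, with which it can share reads. In all, 3 of the 22 were called higher and 4 lower over both lines with siYAP, beside 5.3% and 7.68% of all genes. With YAP5SA 0 were called over both lines by edgeR (5 at an unadjusted p under 0.05, and 2.04% of all genes called), and in HaCaT 1 was called higher and 4 lower, beside 6.99% and 6.64%. Between the lines, where 58.6% of all genes were called under siYAP and 50.2% under YAP5SA, 6 were higher and 7 lower in A431 under siYAP and 9 and 3 under YAP5SA. LZTFL1 was higher in A431 by a log2 difference of 1.27 ± 0.13 under YAP5SA, and RP2 was lower (-1.07 ± 0.11). CCDC28B was called higher in A431 in both arms, and under YAP5SA it stood at 4.30, 3.02 and 4.89 CPM in A431 against 0.179, 0 and 0.153 in HaCaT, where its level lay too near 0 for a fold.

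The transition zone is the gate at the base of the cilium. Of its 21 genes, 0 were called higher and 3 lower with siYAP over both lines, beside 5.3% and 7.68% of all genes, among them the ciliopathy genes TMEM67 (-0.38 ± 0.10) and TCTN3 (-0.36 ± 0.11). TMEM67 stood at 82.4 CPM in A431 siCTRL against 53.2, 52.3 and 47.5 in siYAP, and at 46.5 against 47.2, 40.4 and 44.5 in HaCaT, overlapping its control. TCTN3 passed in neither line alone. With YAP5SA 0 were called over both lines by edgeR (1 at an unadjusted p under 0.05), and in HaCaT 1 was called higher and 1, TMEM67 (-0.55 ± 0.14), lower. Between the lines, 8 were higher and 3 lower in A431 under siYAP, and 10 and 3 under YAP5SA. Of all genes, 58.6% and 50.2% were called in these 2 comparisons. TMEM231 was higher by 1.21 ± 0.18 and 1.08 ± 0.18 in the 2 arms and TCTN1 by 0.76 ± 0.10 and 1.21 ± 0.10. Of 19 tested genes of the distal appendages and cilium assembly, CCP110 (-0.47 ± 0.076) and KIF24 (-0.66 ± 0.17), both of which cap the mother centriole and hold back cilium growth, were called lower with siYAP over both lines, and both passed in A431 but not in HaCaT. With YAP5SA none passed over both lines by edgeR (6 at an unadjusted p under 0.05), and in HaCaT EHD1 (1.32 ± 0.22) and MARK4 (1.29 ± 0.30) were called higher and RAB11A (-0.54 ± 0.17) lower, 3 of 19 beside 13.6% of all genes. CCP110 stood at 84.4 CPM in A431 siCTRL against 55.02, 52.99 and 54.2 in siYAP, and at 57.7 against 45.96, 48.7 and 46.8 in HaCaT. Between the lines 7 were higher and 5 lower in A431 under siYAP and 2 and 9 under YAP5SA, with MARK4 (1.82 ± 0.19 and 1.64 ± 0.19) and KIF24 (1.47 ± 0.17 and 0.71 ± 0.16) higher and PCM1 (-1.45 ± 0.15 and -0.44 ± 0.14) and OFD1 (-1.39 ± 0.14 and -0.73 ± 0.13), both centriolar satellite proteins, lower.

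RFX3, one of the factors that bind the X-box, was called with siYAP over both lines, at 0.53 ± 0.16, though in neither line alone. That was 1 of 7 tested cilium transcription factors (14.3%), beside 13% of all genes. In HaCaT RFX5 was called (0.69 ± 0.16), 1 of the 7 beside 5.67% of all genes. With YAP5SA none was called over both lines or in either line by edgeR (0 at an unadjusted p under 0.05). RFX3 stood at 23.02 CPM in A431 siCTRL against 35.3, 28.8 and 31.9 in siYAP, and at 6.83 in HaCaT siCTRL against 9.72, 9.14 and 11.8 in siYAP. In the YAP5SA arm it stood at 14.7 CPM with empty vector in A431 against 14.98, 17.4 and 16.8, and in HaCaT at 1.47 against 1.15, 1.38 and 1.68. RFX3 was higher in A431 in both arms, by 1.64 ± 0.16 (FDR 9.32e-07) and 3.54 ± 0.18 (FDR 5.48e-09). RFX7 (-1.99 ± 0.23 and -0.92 ± 0.23), RFX2 (-0.89 ± 0.22 and -0.62 ± 0.22) and RFX5 (-0.90 ± 0.11 and -0.53 ± 0.11) were lower in A431. Under each arm 1 of the 7 was called higher and 3 lower, beside 58.6% of all genes called in either direction under siYAP and 50.2% under YAP5SA.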

How the data were processed

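Messenger RNA of A431 and HaCaT cells was sequenced by the authors as 100-base paired reads, trimmed to 75 bases and assigned to RefSeq gene models with RSEM (version 1.2.11 in the submitters' processing notes, which name hg19), and the deposited values are estimated counts per gene for 16 libraries, not normalised. They were rounded to whole numbers. Libraries were grouped by the labels. TMM scaling, edgeR and the limits on FDR and logCPM followed the study's methods. The fit kept genes averaging over 10 counts a library, where the study worded its limit of 10 reads per sample. TMM factors were 0.914 to 1.07. A quasi-likelihood test (edgeR 4.0.16, R 4.3.3) in 1 model of 8 groups, with 8 residual degrees of freedom, was the choice made here. Calls were made at a Benjamini-Hochberg FDR below 0.05 over all 14673 genes with logCPM above 1. Each SE was computed as the absolute log2 value divided by the square root of F. CPM are TMM-scaled. The biological coefficient of variation was 0.174. Depth per library gave 3 counts a value of 0.0641 to 0.166 CPM. The members, the gene lists and the tests were chosen with earlier results of these data known, and the siYAP and YAP5SA comparisons of members and their difference between lines are therefore a description, given as fold changes, calls and counts with no gene's own p-value.

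Genes named are ARL3, DYNC2H1, each member called in a siYAP or YAP5SA comparison or in a difference between lines, the 10 members with the largest mean difference between the lines among those called alike in both arms, and up to 4 genes per other cilium list by the same measures. The change of the line difference, its 8 most changed members, IFT57, IFT88 and IFT140 were chosen after their values were seen. Some listed genes are not reported here. Transcript lengths and 5′ ends came from GENCODE v29, the model with the longest coding sequence, and promoters from RefSeq, and of the 39 member windows the last 40 bases of 33 were found in the gene's own transcript and of 0 in reverse. Alternatives were DESeq2 1.42.0, RLE size factors, 2 other count filters, FDR alone, fewer libraries, both controls of a line together, a replicate block and each treated library left out. The fit was also run on simulated counts, and the outcome is not reported here. Whether read counting used strand is not given in the sources used here. The labels do not tie libraries to separate cultures, and the study calls them biological triplicates.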

Additional observations from a re-analysis of the deposited data

Results flagged for a closer look

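The difference between A431 and HaCaT under siYAP differed from that under YAP5SA in 19 members by the edgeR test of the change itself (FDR below 0.05), and each is given here as the change in log2 units. Of the IFT-A genes these were IFT122 (-0.99), IFT140 (-0.71) and WDR19 (-0.71), with the adaptor TULP3 (-0.47). Of the IFT-B core they were IFT22 (-1.31), IFT46 (-0.69), IFT52 (-0.82), IFT81 (-0.89) and IFT88 (-0.65), and of the peripheral subunits IFT57 (0.75), IFT80 (-1.06) and IFT172 (-1.01). The kinesin-2 subunit KIF3B changed by -0.59. In the BBSome they were BBS1 (-1.89), BBS5 (-1.03), BBS7 (0.52) and BBS9 (-1.49), with the chaperonin BBS10 (-0.72) and the GTPase ARL3 (-1.09). In 40.2% of all tested genes the same test passed, and the transfection and culture of the arms cannot be told apart from YAP in it.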

How the results depend on the processing

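The counts between the lines stayed within 1.5 times of their values under every alternative run (22 to 30 members under siYAP, 18 to 24 under YAP5SA, 15 to 21 for the change). With the replicate number as a block they were 26, 21 and 20. Same-numbered libraries of the 2 lines correlated at 0.0169 to 0.223 under siYAP and 0.142 to 0.375 under YAP5SA, all above 0. The labels do not state a pairing and the main fit took none, so a shared batch of same-numbered libraries is not excluded. No paired fit was possible for single controls. Other counts of members moved, and the cause was not tested beyond the fewer libraries or genes each setting uses. With DESeq2, 2 and 1 members (2% and 6.43% of all genes) differed in the siYAP and YAP5SA effect between lines and 5 were called with siYAP in HaCaT. With siCTRL and empty vector as 2 controls, siYAP called 1 in A431, 8 in HaCaT and 8 over both lines, ARL3 with YAP5SA in A431 turned to 0.14, and 28 of 36 members lay below 0 with YAP5SA in HaCaT. Without a count filter siYAP called 3 in A431 and YAP5SA 0 over both lines, and with HaCaT fitted alone YAP5SA called 2 (5.56%, beside 4.51% of all genes). Leaving out 1 library gave 0 to 3 for the YAP5SA difference between lines, 2 to 3 for siYAP in A431, 5 to 12 for YAP5SA in HaCaT and 0 to 8 for YAP5SA over both lines. Over all genes, called counts moved with siYAP from 821 to 1430 (DESeq2), 198 (2 controls) and 331 to 542 (a library left out) in A431, and from 832 to 1344 (DESeq2), 2941 (2 controls), 356 (line alone) and 522 (without replicate 3) in HaCaT, and from 1904 to 2933 over both lines (2 controls). With YAP5SA they moved from 2001 to 662 (line alone) and 1140 (without replicate 3) in HaCaT, from 300 to 1063 (DESeq2), 766 (2 controls) and 50 to 1370 (a library left out) over both lines, and from 0 to 87 in A431 without replicate 1. Genes whose effect differed between lines went from 25 to 6 to 294 for siYAP and from 13 to 1 to 944 for YAP5SA. Of the named members' values recomputed, 623 kept their side of the threshold, 64 lost and 2 gained a call under an alternative and 1 turned.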

Other observations

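The Hedgehog pathway, which signals through the cilium, was unevenly present. Of 16 genes 9 were tested. GLI3, a transcription factor of the pathway, stood at 0 to 0.31 CPM in every A431 library and at 7.15 to 35.1 in HaCaT, and SMO, the receptor that enters the cilium when the pathway is on, at 0.378, 0.379 and 0.499 in A431 siYAP against 11.4, 12.4 and 10.4 in HaCaT (log2 differences -4.78 ± 0.27 and -4.79 ± 0.26 in the 2 arms). PTCH1 was lower in A431 (-1.78 ± 0.21 and -1.05 ± 0.21). In all 1 was called higher and 3 lower in A431 under siYAP, and 2 and 3 under YAP5SA. That was 44.4% and 55.6% of the 9, beside 58.6% and 50.2% of all genes. None was called with siYAP or YAP5SA over both lines by edgeR (2 each at an unadjusted p under 0.05). Of 21 motile cilium genes in the table, 11 passed the count filter. In A431 under siYAP 1 was called higher (LRRC6, 2.56 ± 0.36) and 1 lower (SPAG16, -2.09 ± 0.20). Under YAP5SA LRRC6 stood at 5.81, 5.31 and 5.90 CPM in A431 against 0.154, 0.488 and 0.128 in HaCaT, where its level lay too near 0 for a fold. In that arm 2 were called higher, LRRC6 and DNAH5 (1.52 ± 0.21). That was 18.2% of the 11 in each arm, beside 58.6% and 50.2% of all genes. None was called with siYAP or YAP5SA over both lines (2 and 6 at an unadjusted p under 0.05).

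Of 7 tested genes of cilium disassembly, HDAC6, the tubulin deacetylase, was called with siYAP over both lines (0.57 ± 0.13, with 13% of all genes called) but in neither line alone. With YAP5SA none was called over both lines by edgeR (0 at an unadjusted p under 0.05), and KIF2A, a microtubule-depolymerising kinesin, was called lower in HaCaT (-0.53 ± 0.15, with 13.6% of all genes called). AURKA, the kinase that starts disassembly and also acts in mitosis, stood at 139.7, 116 and 116 CPM in A431 against 19.8, 28.4 and 15.9 in HaCaT under siYAP, and at 163, 198 and 203 against 153, 186 and 176 under YAP5SA. Its log2 differences were 2.54 ± 0.19 and 0.13 ± 0.17, and those of PLK1 2.64 ± 0.27 and -0.016 ± 0.24 and of NEK2 3.25 ± 0.21 and 0.34 ± 0.19, the first of each pair past the threshold and the second not. In all 4 were called higher and 1 lower in A431 under siYAP, and 2 and 1 under YAP5SA, where 58.6% and 50.2% of all genes were called. The 5 proliferation markers summed to 880 to 1001 CPM in A431 and 267 to 401 in HaCaT under siYAP, and to 1628 to 2130 and 2137 to 2423 under YAP5SA, and their part in these values was not tested.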
